A study of Mus musculus with 8 samples.

Results

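Protein phosphatase 2A (PP2A) was followed through 10 genes that encode its subunits, of 20692 genes in all. They were the catalytic genes Ppp2ca and Ppp2cb, the scaffold genes Ppp2r1a and Ppp2r1b, and 6 regulatory genes, Ppp2r2a, Ppp2r2b and Ppp2r2c of the B55 group and Ppp2r5a, Ppp2r5c and Ppp2r5e of the B56 group. The family was chosen by the measured level of Ppp2ca, which was low in the libraries of older mice, and the other 9 genes as its partners. The age comparison of the members is therefore a description. It gives no p-value for a member, and nothing is read from its counts of members past the threshold. All 10 members had enough reads to be tested.

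PP2A is one of the main serine and threonine phosphatases of animal cells. A catalytic C subunit binds a scaffold A subunit, and this core takes up 1 of many regulatory B subunits, which set where the enzyme goes and what it dephosphorylates. In neurons it is known as the principal phosphatase of the microtubule protein tau, and it opposes kinases of synaptic signalling. Cells are known to hold C subunit protein within narrow limits, so its mRNA need not follow the protein, and only mRNA was measured here.

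RNA came from td-Tomato-positive cells of the central amygdala of untreated male mice, about 1000 cells sorted by flow cytometry per library and 1 mouse per library. All mice carried the Rosa::loxP-STOP-loxP-td-Tomato reporter. It was switched on by PKC delta-type::Cre in 4 PKCd libraries (2 mice of 9 weeks and 2 of 18 weeks) or by SST::Cre in 4 SST libraries (2 mice of 8 weeks and 2 of 20 weeks). A Cre reporter marks every cell in which the promoter is or was active, and the gate selected fluorescence, not a neuronal protein. Replicates 1 and 2 of each population are the younger class and replicates 3 and 4 the older class. The younger libraries held 10316149 to 18242496 estimated counts and the older ones 964361 to 2522749, so age class and depth cannot be told apart. The spread covers mice, sorting and amplification together.

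The sorted cells were labelled as neurons, and in each library the neuron markers summed to less than the oligodendrocyte markers. Sums over lists of different genes do not give the share of RNA from a cell type. Neuron markers summed to 512.3 to 1554 TPM (a relative level corrected for transcript length) in the 4 younger libraries and to 239.4 to 438.3 TPM in the 4 older ones. The synaptic gene Snap25 was detected in all 8 libraries, while Slc32a1, the vesicular GABA transporter, was listed at 0 in 4 of the 8. Markers of oligodendrocytes summed to 10181 to 59654 TPM. Microglia markers summed to 31438 to 54056 TPM in PKCd and to 494.7 to 6270 TPM in SST libraries, and all 12 were above 0 in every library. The PP2A core subunits are known to be expressed in nearly all cell types. In such bulk samples fewer cells of a type and less RNA per cell cannot be told apart.

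The 2 catalytic genes encode near-identical proteins, so their transcripts in GENCODE were compared to see whether their reads can be separated. Over the whole coding sequence of 927 bases, 170 bases differed (81.7% identical), and the full transcripts shared 0 windows of 31 bases. The scaffold transcripts Ppp2r1a and Ppp2r1b also shared 0 such windows. The deposited Ppp2ca target was 1930 bases long, against 7102 bases for the coding GENCODE transcript that was compared. Reads from the additional sequence of that transcript were outside what was counted. Ppp2cb had the reverse relation, with 1836 against 1469 bases.

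Ppp2ca (gene ID 19052, chromosome 11, 52098824 to 52122749, GRCm38), the catalytic subunit C alpha, was the most abundant PP2A transcript in the younger mice. It stood at 417.6 and 246.6 TPM in younger PKCd replicates 1 and 2 and at 367 and 474 TPM in younger SST replicates 1 and 2. In the older mice it stood at 23 and 24.1 TPM in PKCd replicates 3 and 4 and at 47.6 and 24.6 TPM in SST replicates 3 and 4. Every older library lay below every younger one. The means were 376.3 ± 96.9 TPM and 29.8 ± 11.9 TPM (SD, n = 4 each). The fitted log2 fold change, older minus younger with TMM scaling, was -3.93 ± 0.48 (SE), where the median over all 11328 genes tested was -0.16. These values chose the family and carry no test here.

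**Figure D1:**
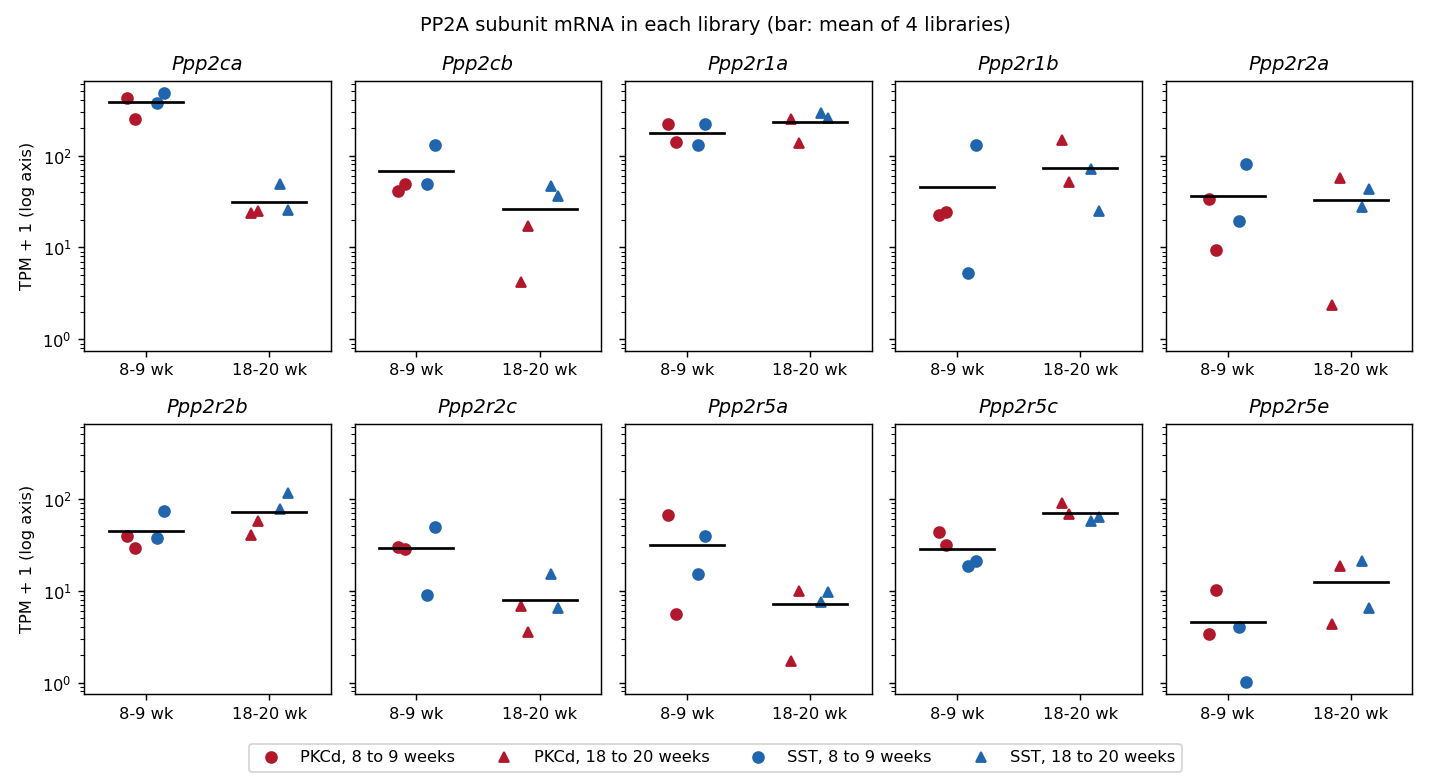
Level of each PP2A subunit, as TPM + 1 on a log axis, in the 4 libraries of 8 to 9 week and the 4 of 18 to 20 week mice. Colour gives the population, symbol shape the age class, and the bar the mean of 4 libraries; Ppp2ca and Ppp2r5c are the panels in which the age classes do not overlap, in opposite directions.

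Ppp2cb (chromosome 8, 33599621 to 33619804), the catalytic subunit C beta, was lower in older mice on average, but its age classes overlapped over all libraries. It stood at 40.2, 47.7, 48.5 and 130.4 TPM in the younger libraries (PKCd replicates 1 and 2, then SST replicates 1 and 2). The older libraries had 3.17 and 16 TPM in PKCd replicates 3 and 4 and 46.1 and 35.6 TPM in SST replicates 3 and 4. SST replicate 3 thus fell inside the younger range, and PKCd replicate 3, with 3 counts, was at the level that a count of 0 allows (3 counts). Within each population the older libraries lay below the younger ones, narrowly so in SST (46.1 against 48.5 TPM). Each such comparison sets 2 libraries against 2, and the share of all genes with this order was not counted. The log2 fold change was -1.84 ± 0.84 (SE). As a share of catalytic TPM, Ppp2ca made up 78.4 to 91.2% in younger libraries and 40.9 to 87.9% in older ones. In SST replicate 4 Ppp2cb exceeded Ppp2ca, and in SST replicate 3 the levels were nearly equal.

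The scaffold genes did not show the difference seen in Ppp2ca. Ppp2r1a (chromosome 17, 20945454 to 20965905), the scaffold A alpha, had 218.8, 139.8, 129.3 and 217.4 TPM in the younger and 249.8, 137, 288.4 and 254.5 TPM in the older libraries, both in the order PKCd then SST. Means were 176.3 ± 48.4 and 232.4 ± 65.9 TPM (SD, n = 4 each), the classes overlapped, and the log2 fold change was 0.17 ± 0.43 (SE). It was the most even member across libraries and the most abundant one in all 4 older libraries, as Ppp2ca was in all 4 younger ones. Ppp2r1b, the scaffold A beta, spread from 4.25 TPM in SST replicate 1 to 130.2 TPM in SST replicate 2 among younger libraries and from 23.7 to 147.1 TPM among older ones. Its log2 fold change was 0.69 ± 0.94 (SE). Most of its reads went to 1 of its 3 deposited targets, of 3634 bases.

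Summed levels restate the low Ppp2ca by which the family was chosen, since Ppp2ca was most of the catalytic TPM in younger libraries, and they are given as a description. Catalytic TPM summed to 294.3 to 604.4 in the younger and 26.2 to 93.7 in the older libraries, whereas scaffold TPM summed to 133.6 to 347.6 and 187.1 to 396.8. The catalytic sum was 1.74 to 3.11 times the scaffold sum in younger mice and 0.0659 to 0.261 times in older mice. Ppp2ca alone was 1.76 to 2.84 times Ppp2r1a in the younger and 0.092 to 0.176 times in the older libraries. Regulatory TPM overlapped, at 97.5 to 259.1 and 138.7 to 237.2. Ppp2ca made up 39.1 to 56.8% of the summed TPM of the family in younger mice and 4.09 to 7.32% in older mice.

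**Figure D2:**
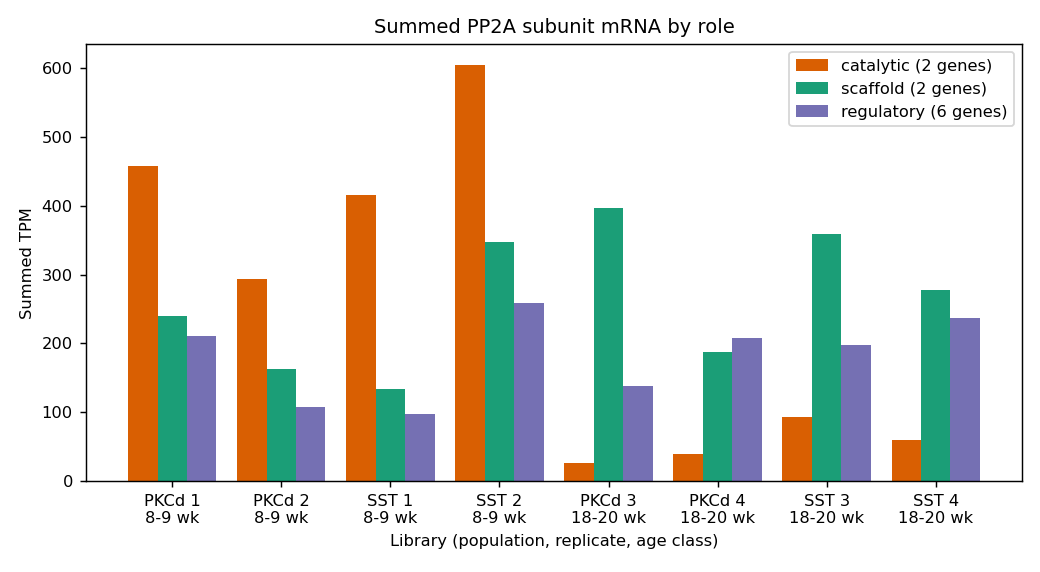
Summed TPM of the 2 catalytic, 2 scaffold and 6 regulatory PP2A genes in each library, with the 4 libraries of 8 to 9 week mice on the left and those of 18 to 20 week mice on the right. The catalytic bar is the tallest of its library in the 4 younger libraries and the shortest in the 4 older ones.

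B55 subunits direct PP2A to mitotic and cytoskeletal substrates, and Ppp2r2b and Ppp2r2c are known for their expression in brain. Ppp2r2a (B alpha, chromosome 14, 67014056 to 67072471) ranged from 8.27 to 80.8 TPM in the younger and from 1.35 to 56.3 TPM in the older libraries (log2 fold change -0.15 ± 0.93, SE). The classes overlapped almost completely. Ppp2r2c (B gamma, chromosome 5, 36866846 to 36955078) had 29, 27.6, 7.91 and 48.1 TPM in younger PKCd and SST libraries and 5.87, 2.57, 14.1 and 5.4 TPM in older ones. The log2 fold change was -2.28 ± 0.93 (SE), and SST replicate 1, a younger library, lay within the older range. After Ppp2ca it was the member with the profile nearest to that of Ppp2ca.

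Ppp2r2b (B beta, chromosome 18, 42645207 to 43059471) had 28.3 to 72.3 TPM in the younger and 39.6 to 113 TPM in the older libraries, with overlap (log2 fold change 0.59 ± 0.58, SE). Its value joins a coding RefSeq target of 2079 bases with a record of 2531 bases that RefSeq lists as non-coding and GENCODE ties to a coding transcript of the gene. The coding target alone had 1.87, 28.3, 24.6 and 39.7 TPM in younger libraries and 1.30, 0, 0 and 30.7 TPM in older ones. With that target alone the log2 fold change was -2.98, so the direction for Ppp2r2b depends on which target is counted. The tool divides reads shared by the targets of a gene, which makes such a division uncertain.

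B56 subunits are known to guide PP2A to signalling and chromosomal substrates, and here their genes went different ways. Ppp2r5c (B prime gamma, chromosome 12, 110447144 to 110583075) had 42.4 and 30 TPM in younger PKCd and 17.3 and 20 TPM in younger SST libraries. Its older libraries had 87.8 and 67.1 TPM in PKCd and 55.8 and 62.9 TPM in SST mice. All 4 older libraries lay above all 4 younger ones, the opposite order to Ppp2ca, at means of 68.4 ± 13.8 against 27.4 ± 11.4 TPM (SD, n = 4 each). The log2 fold change was 1.15 ± 0.51 (SE). Reads moved between its 4 deposited targets from library to library: the target of 4120 bases had 9.49 to 52.3 TPM in 7 libraries and 0.00141 TPM in SST replicate 4. Values are therefore given as the sum per gene.

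Ppp2r5a (B prime alpha, chromosome 1, 191351981 to 191397041) had 66.2, 4.62, 14.2 and 37.9 TPM in the younger and 0.728, 8.98, 6.49 and 8.55 TPM in the older libraries. PKCd replicate 2 was the younger library inside the older range, and the log2 fold change was -2.47 ± 1.20 (SE). Ppp2r5e (B prime epsilon, chromosome 12, 75449463 to 75596237) was the least abundant member in the younger class and ranked eighth in the older, at 0.0236 to 9.08 TPM in the younger and 3.38 to 19.9 TPM in the older libraries (log2 fold change 1.5 ± 1.57, SE). SST replicate 2 held 1 read of it. Among the B56 genes of the family, Ppp2r5c was the highest in 6 libraries, the 4 older ones among them. Ppp2r5a was the highest of them in PKCd replicate 1 and SST replicate 2. The B56 genes Ppp2r5b and Ppp2r5d are outside the family and were not ranked. Ppp2r5b, at 222.5 TPM in SST replicate 2 and 79.6 TPM in SST replicate 3, exceeded the ranked genes there.

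The choice of members used the age contrast, so the counts that follow were set in part by that choice and nothing is read from them. In edgeR 1 of 10 members was past adjusted p = 0.05, where 0.053% of all genes were. In DESeq2 it was also 1 of 10, where 5.32% of genes were. That member was Ppp2ca, whose low level chose the family, so its passing is no support. With limma-voom, within either population alone, or with any 1 library left out, the count was 0 of 10. All 4 older libraries lay below all 4 younger ones for 1 of 10 members (3.53% of all genes) and above them for 1 of 10, Ppp2r5c (4.15% of all genes). Of the 9 partners, 4 had a negative and 5 a positive log2 fold change, with a median of 0.17, while over all genes tested 5122 were positive and 6206 negative. Among these partners Ppp2cb, Ppp2r2c and Ppp2r5a were lower on average, with classes that overlapped over all libraries. The classes of Ppp2cb did not overlap within either population. The scaffold genes had positive values smaller than their SE.

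**Figure D3:**
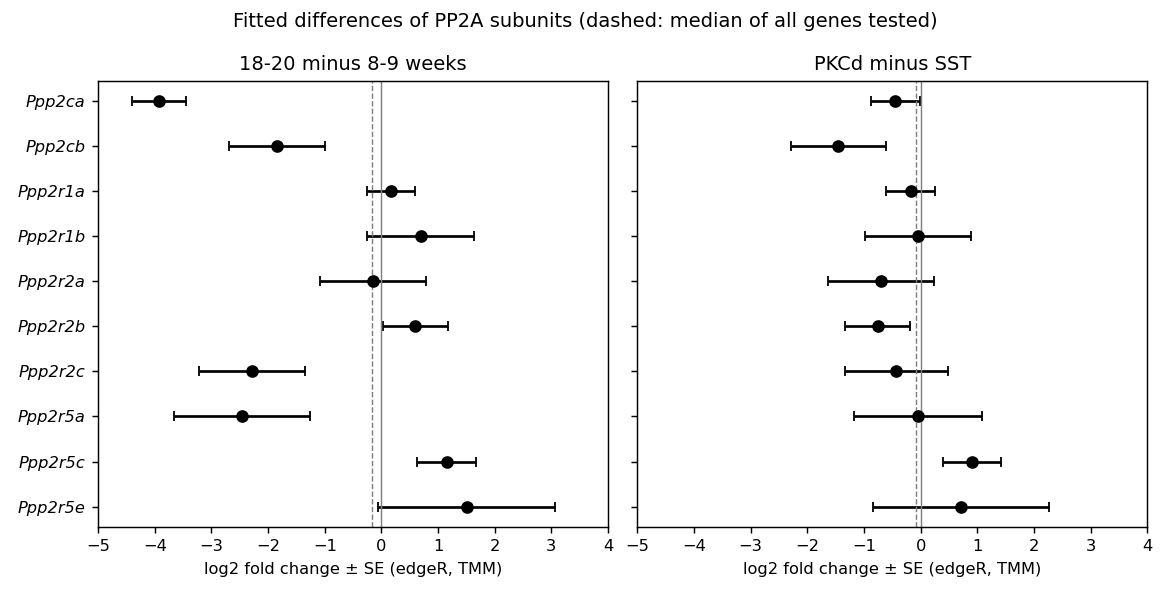
Fitted log2 fold change ± SE of each PP2A subunit (edgeR with TMM scaling) between age classes (left) and between populations (right). The solid line marks 0 and the dashed line the median of all genes tested; Ppp2ca, at -3.93, is farthest from both in the left panel.

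Depth was set beside these values, because the older libraries were shallow. At the mean CPM (counts scaled to library size) of the younger libraries, the 4 older ones would have held 422.5 to 1105 counts of Ppp2ca, and they held 23, 38, 78 and 68. That is 5.44 to 11.4% of the count at the younger mean, a mean CPM 14.0 times lower. For Ppp2r1a the older libraries held 68.2 to 148.4% of the count at the younger mean. Ppp2r2c and Ppp2r5a had 8.30 to 46.9% and 2.19 to 27.1%, with as few as 9 and 1.21 counts. Members with few counts are known less precisely, and PKCd replicate 3, the shallowest library, had 3 counts or fewer for Ppp2cb, Ppp2r2a and Ppp2r5a.

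**Figure D4:**
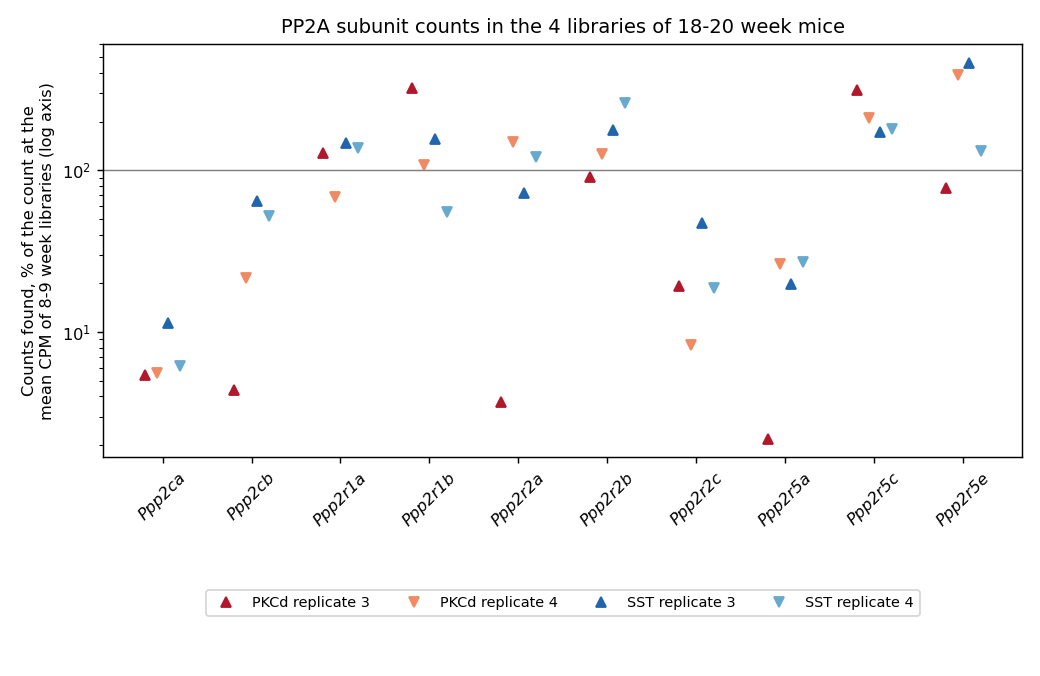
Counts of each PP2A subunit found in the 4 libraries of 18 to 20 week mice, as a percentage (log axis) of the count that the mean CPM of the 8 to 9 week libraries gives at the depth of that library. The grey line marks 100%; all 4 points of Ppp2ca lie between 5.44 and 11.4%, and those of Ppp2r1a between 68.2 and 148.4%.

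Markers of several cell types also differed between age classes. Neuron markers had a median log2 fold change of -1.76 between older and younger libraries, with 11 of 11 tested members negative and 0 past the threshold. Their sum was 886.6 ± 458.8 TPM in the younger and 338.9 ± 93.2 TPM in the older libraries, without overlap. Mural and red cell markers summed to 101.5 to 8297 TPM in the younger and 6584 to 11443 TPM in the older libraries, and endothelial markers to 0.737 to 2634 and 980.8 to 4247 TPM. Microglia markers had 11 of 12 values negative with age (median -1.24), and their sums overlapped between the classes over all libraries and in PKCd, while the SST sums were 6270 and 1778 TPM in younger and 1488 and 494.7 TPM in older libraries. Oligodendrocyte markers had 6 of 8 negative (median -0.93), with overlapping sums. Astrocyte markers had 7 of 8 positive (median 0.67). They summed to 450.7 to 4551 TPM in the younger and 3107 to 7038 TPM in the older libraries, with overlap. The part of these shifts in the PP2A values was not tested.

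The Ppp2ca difference was also fitted in each population. Fitted within PKCd libraries alone it was -3.99 and within SST libraries alone -3.71 on the log2 scale. The interaction of population and age class, which the choice of members did not use, was -0.17 ± 0.93 (SE) for Ppp2ca, with an edgeR adjusted p of 1.00. No member passed the interaction test (0 of 10 in edgeR, where 0% of all genes passed, and 0 of 10 in DESeq2, where 0.671% did). None had an unadjusted edgeR p under 0.05 either, against 4.12% of genes. The SE, of 0.91 to 3.08 for the 10 members, leaves room for differences of several fold between populations.

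The contrast of PKCd with SST libraries, the main one of the design, was not used to choose the members. The libraries differed in cell content: all 12 microglia markers were higher in every PKCd than in every SST library, with a median log2 difference of 4.30 and 5 of 12 past the threshold in edgeR. The part of this in the PP2A values was not tested. No member passed: 0 of 10 in edgeR, where 0.282% of all genes did, 0 of 10 in DESeq2, where 4.01% did, and 0 of 10 in limma-voom, where 45 of 11328 genes did. At an unadjusted edgeR p under 0.05 the count was also 0 of 10, against 6.67% of all genes. Each member overlapped between the populations, whereas 3.88% of genes had every PKCd library above every SST library and 3.05% the reverse.

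Catalytic Ppp2cb had the largest fitted population difference. PKCd libraries averaged 26.8 ± 20.8 TPM (SD, n = 4) and SST libraries 65.1 ± 43.8 TPM (SD, n = 4), which gave a fitted PKCd minus SST difference of -1.45 ± 0.83 (SE, edgeR adjusted p 0.844). It was negative in all 21 alternatives that were fitted (-2.02 to -0.93), as were Ppp2ca, Ppp2r2a and Ppp2r2b. The alternatives refit the same libraries, so a constant sign adds no support. Ppp2r5c had 56.8 ± 25.8 against 39.0 ± 23.7 TPM, a log2 fold change of 0.91 ± 0.51 (SE, edgeR adjusted p 0.832), and was positive in all 21. Ppp2ca, at 177.8 ± 191.3 against 228.3 ± 226.4 TPM, had -0.44 ± 0.43 (SE, edgeR adjusted p 0.927), and its SD spans both age classes within each population.

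Among the other members, Ppp2r1a had the narrowest interval, -0.18 ± 0.43 (SE), with means of 186.3 ± 56.8 TPM (SD, n = 4) for PKCd and 222.4 ± 68.5 TPM (SD, n = 4) for SST. Ppp2r2a and Ppp2r2b had -0.70 ± 0.94 and -0.76 ± 0.58 (SE). Ppp2r2c, Ppp2r1b and Ppp2r5a had -0.42, -0.05 and -0.04, and Ppp2r5e had 0.72 ± 1.55 (SE). The signs of Ppp2r1a, Ppp2r1b, Ppp2r2c, Ppp2r5a and Ppp2r5e were not the same in all alternatives. Over the 10 members 2 were positive and 8 negative, with a median of -0.30, against -0.08 over all genes tested.

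The members were also ordered by mean TPM in each age class. In younger mice the mean TPM put Ppp2ca first, at 376.3, then Ppp2r1a, at 176.3, with no overlap between these neighbours, and then Ppp2cb, at 66.7, whose highest library exceeded the lowest of Ppp2r1a. From Ppp2cb down to Ppp2r5c, at 27.4 TPM, each neighbour overlapped the next, and Ppp2r5e came last, below every library of its neighbour Ppp2r5c but within the range of others, such as Ppp2r1b. In older mice Ppp2r1a was first, at 232.4 TPM. Ppp2r1b, Ppp2r2b and Ppp2r5c followed at 72.8, 71 and 68.4 TPM and overlapped, and Ppp2ca was sixth, between Ppp2r2a at 31.5 and Ppp2cb at 25.2 TPM. Ppp2r5c moved from rank 9 to 4, Ppp2cb from 3 to 7 and Ppp2r5a from 7 to 10.

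Other PP2A subunits, outside the 10, showed no member past the threshold: 0 of 9 in either comparison, in edgeR and in DESeq2. Their median log2 fold change was -0.78 between age classes and -0.38 between populations. The B56 genes Ppp2r5b and Ppp2r5d had 68.2 ± 103.2 and 27.7 ± 24.1 TPM in younger and 35.1 ± 37.7 and 33.6 ± 20.7 TPM in older libraries (SD, n = 4 each). The B55 gene Ppp2r2d had 67.5 ± 59.4 and 15.4 ± 20.4 TPM. Strn3, a striatin that joins PP2A to kinases, had 60.1 ± 40 and 21.8 ± 11.8 TPM, with overlap.

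Genes that assemble, methylate or inhibit PP2A included the profile closest in kind to Ppp2ca among the related genes. Set, a nuclear protein that inhibits PP2A, had 160.5, 215.8, 94.6 and 205 TPM in younger and 41.8, 47.8, 38.8 and 34.4 TPM in older libraries, in the order PKCd then SST. All older libraries lay below all younger ones. The fitted log2 difference, -2.30 ± 0.45 (SE), had an edgeR adjusted p of 0.107; with no filter the adjusted p in edgeR was 0.0382, and in DESeq2 it was 2.72e-05. Ensa and Arpp19, whose phosphorylated forms inhibit the B55 enzyme, had 277.8 ± 183.5 and 106.7 ± 56.9 TPM in younger and 194.5 ± 36.8 and 148.5 ± 38.4 TPM in older libraries. Ptpa, an activator of the PP2A core, had 72 ± 56.2 and 50.1 ± 42.6 TPM. Of the 11 tested genes of this list 0 passed in edgeR in either comparison, DESeq2 called 2 between age classes (Set and Fam122a, both lower), and the age median was -0.51.

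The striatin-linked STRIPAK genes, of which 8 were tested, had 0 past the threshold in edgeR and in DESeq2 in either comparison. Pdcd10, an adaptor of that complex, was lower in all 4 PKCd libraries, at 21.4 to 103.4 TPM, than in all 4 SST libraries, at 141.2 to 332.4 TPM (log2 fold change -1.88 ± 0.58, SE, edgeR adjusted p 0.38). Stk25 and Mob4 had age log2 fold changes of 0.34 and -0.29.

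The phosphatases nearest to PP2A in sequence are PP4 and PP6. Ppp4c, the PP4 catalytic subunit, had 187 ± 38.6 TPM in younger and 213.5 ± 82.8 TPM in older libraries (SD, n = 4 each), and the fitted log2 difference was -0.10 ± 0.46 (SE). Ppp6c, the PP6 catalytic subunit, had 56.4 ± 37.7 and 140.2 ± 29.6 TPM, and all 4 older libraries lay above the younger ones (1.21 ± 0.92, SE, edgeR adjusted p 0.758). Ppp4r3b and Ppp6r1 overlapped between the classes. Of 9 tested genes of this list 0 passed in edgeR in either comparison, and DESeq2 called 1 between age classes, Ppp4r1, as higher in older libraries.

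Other catalytic subunits of the same superfamily gave a wide spread. Ppp1ca, of protein phosphatase 1, was the most abundant, at 563.8 ± 120.2 TPM in younger and 832.3 ± 251.7 TPM in older libraries. Its paralog Ppp1cc had 168.2 ± 29 and 46.8 ± 29.2 TPM, with all older below all younger libraries (log2 fold change -2.16 ± 0.72, SE, edgeR adjusted p 0.422). Ppp1cb and Ppp5c had 79.1 ± 26.1 and 76.9 ± 48.6 TPM in younger and 74.4 ± 23 and 72.9 ± 47.1 TPM in older libraries. Of 7 tested genes 0 passed in edgeR or DESeq2.

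No kinase or substrate linked to PP2A passed the threshold in edgeR in either comparison. Of 14 tested genes 13 had a negative and 1 a positive age log2 fold change, with a median of -1.61, beside -1.76 for the neuron markers. Mapk3 had 135.9 ± 75 TPM in younger and 134.6 ± 53.9 TPM in older libraries, with overlap. Cdk5, a tau kinase, had 127.8 ± 39 and 54.9 ± 31.6 TPM, and Ppp1r1b, the striatal phosphatase inhibitor DARPP-32, had 102.4 ± 64.7 and 85.9 ± 32.9 TPM. Over all 58 tested genes of the 6 related lists, 10 had an unadjusted edgeR p under 0.05 between age classes, where 8.35% of all genes did, and 2 between populations, where 6.67% did. DESeq2 called 5 of the 58 between age classes, where it called 5.32% of all genes: Cdk5, Fam122a, Hdac4 and Set as lower and Ppp4r1 as higher in older mice, and 0 between populations; these names were taken after their values were seen.

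Genes were also ranked by likeness to Ppp2ca across the 8 libraries, from the same values by which the family was chosen. Likeness was the root mean square difference of log2(TPM + 1) after each gene was centred, among 5838 other genes with a mean of at least 20 TPM. Ppp2r2c, Ppp2r5a and Ppp2r5e, with means of 17.6, 18.5 and 7.57 TPM, were below that level and were not ranked. As 5 genes were taken from so many, that they lay outside the family tells nothing about the partners. The nearest were Pip4p1, a lipid phosphatase (0.44), Arl8a, a lysosomal GTPase (0.49), Ybx1, an RNA-binding protein (0.53), Cpox, an enzyme of haem synthesis (0.60), and Rfxap, a transcription factor subunit (0.66). Ybx1 had 167.9 to 224.1 TPM in younger and 14.3 to 48.6 TPM in older libraries. Pip4p1 had 78.4 to 130.3 and 6.28 to 20.6 TPM. Of the members, Ppp2r2c differed from Ppp2ca by 1.15, Ppp2cb by 1.33, Ppp2r5a by 1.36 and Ppp2r1a by 2.04. Among the 5838 genes Ppp2cb ranked 212 in nearness to Ppp2ca and Ppp2r1a ranked 2266.

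**Figure D5:**
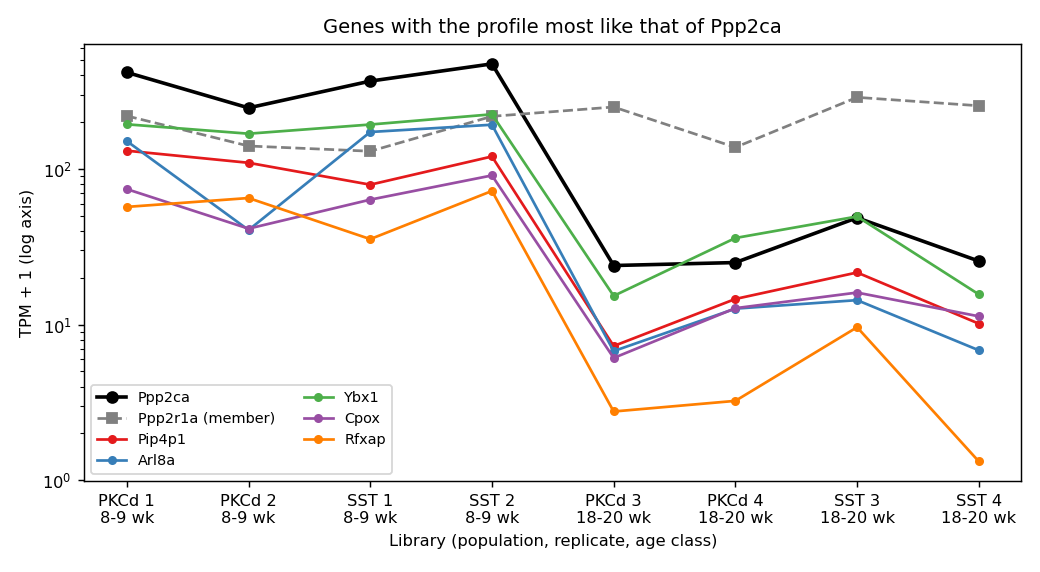
TPM + 1 on a log axis in each library for Ppp2ca, the 5 genes with the most similar profile, and the scaffold gene Ppp2r1a (dashed); lines join the values of 1 gene. The 5 genes, chosen for this likeness, lie lower in the 4 older libraries, and Ppp2r1a does not.

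To show sequence for the most abundant member of each age class, the 250 bases before the start of Ppp2ca and of Ppp2r1a are given for comparison. They are from RefSeq on GRCm38.p6, plus strand, at chr11:52098574-52098823 and chr17:20945204-20945453. Capitals mark matches, on either strand, to TGACGTCA (cAMP response element), TGANTCA (AP-1 site), GGGCGG (GC box) and the letters CCAAT, the box of that name. The N stands for any base.
Ppp2ca: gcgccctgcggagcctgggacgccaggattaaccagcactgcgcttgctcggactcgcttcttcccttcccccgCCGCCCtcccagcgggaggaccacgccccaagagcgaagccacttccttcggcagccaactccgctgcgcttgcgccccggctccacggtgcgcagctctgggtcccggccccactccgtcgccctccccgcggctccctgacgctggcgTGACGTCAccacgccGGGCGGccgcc
Ppp2r1a: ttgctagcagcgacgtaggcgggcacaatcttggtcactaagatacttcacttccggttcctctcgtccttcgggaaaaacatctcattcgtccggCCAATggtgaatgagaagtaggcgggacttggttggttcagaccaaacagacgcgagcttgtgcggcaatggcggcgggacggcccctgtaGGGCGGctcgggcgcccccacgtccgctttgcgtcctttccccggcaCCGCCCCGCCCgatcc
Ppp2ca held 1 cAMP response element, 26 bases before the start, and 2 GC boxes. Ppp2r1a held 3 GC boxes, of which a pair overlaps, and 1 CCAAT box. The cAMP response element was found in 1.55% of 32851 promoter windows of this length, the AP-1 site in 6.75%, the GC box in 32.7% and the CCAAT box in 33.8%. Windows were at hand for 6 of the 10 members (7 windows), and the element was in that of Ppp2ca alone. A match is a run of letters and says nothing of binding.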

How the data were processed

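Members, lists and rules were chosen with earlier results of these data known. The authors deposited estimated counts and TPM per RefSeq transcript. Tools listed by the submitters' processing notes are kallisto 0.43.0 and BWA 0.7.12, with the build mm10, with no role stated for either. TPM, as deposited, keeps no depth. Of 30404 targets, 30080 were named from RefSeq (GRCm38.p6) and 147 from GENCODE; 177 kept their accession. Targets of a gene were added up, and the estimated counts were then rounded.

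The main test was edgeR 4.0.16 (quasi-likelihood, TMM, default filter by population) with age class and population as terms; the interaction used all 4 cells. P-values were adjusted by Benjamini and Hochberg over 11328 genes. SE came from the F statistic. The test was also run on counts simulated with the spread it had fitted, which says nothing of the differing cell content of these libraries. Named genes were all members, up to 4 genes per related list by mean TPM, and 5 genes most like Ppp2ca; others were named after their values were seen. A few that fall under the rule are not reported here. DESeq2 1.42.0, limma 3.58.1 and each library left out were alternatives. Pairing by replicate number is in the closing section.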

Additional observations from a re-analysis of the deposited data

Results flagged for a closer look

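In groups of 4 libraries, 5 of 40 member levels had 1 library far from the other 3, where chance flags about 1 in 20 groups; the population groups and age classes share libraries. Ppp2ca stood at 47.6 TPM in SST replicate 3, against 23 to 24.6 TPM in the other older libraries. Ppp2cb stood at 130.4 TPM in SST replicate 2, against 35.6 to 48.5 TPM in the other SST libraries and 40.2 to 48.5 TPM in the other younger ones. Ppp2r1b stood at 130.2 TPM in the same library, against 4.25 to 23.5 TPM in the other younger ones. Ppp2r5a stood at 66.2 TPM in PKCd replicate 1, against 0.728 to 8.98 TPM in the other PKCd libraries.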

How the results depend on the processing

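For age class, the count of members past the threshold was 1 (Ppp2ca) in 10 alternatives with all libraries and fell to 0 in limma-voom, within PKCd or SST libraries alone, and with any 1 library left out (0 to 0). Ppp2ca chose the family, so this count is no measure of how firm its difference is. The log2 fold change of Ppp2ca was -4.11 to -3.64 over all 21 alternatives, which refit the same libraries. RLE scaling moved the median of all genes from -0.16 to -0.06 and log2(TPM + 1) to 0.08; relative to it Ppp2ca was at -3.76, -3.76 and -3.72. Related genes past the threshold between age classes were 0, but 1 with no filter and 5 in DESeq2. Member counts for population and interaction were 0 in every alternative run, the coding Ppp2r2b target alone (chosen after seeing the data) included.

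Population signs changed for uncalled members. Ppp2r1b was 0.10 in limma-voom, 0.45 on log2(TPM + 1), 0.50 on log2(TPM + 0.1), 0.65 with the replicate block, 0.22 with no age term and 1.17 in 18 to 20 week libraries (-0.68 to 1.57 with 1 library left out). Ppp2r1a was 0.076 in 8 to 9 week libraries (-0.33 to 0.029 with 1 left out), Ppp2r2c 0.37 in limma-voom and 0.21 in 8 to 9 week libraries, and Ppp2r5a 0.32 with no age term and 0.54 in 8 to 9 week libraries (-1.24 to 0.41 with 1 left out). Ppp2r5e was -0.21 in 18 to 20 week libraries. Interactions changed sign for Ppp2r2a in limma-voom (-0.55), on log2(TPM + 1) (-0.39) and on log2(TPM + 0.1) (-0.66). With 1 library left out they spanned -3.38 to 2.10 for Ppp2r2a, -0.49 to 0.25 for Ppp2ca, -0.92 to 3.44 for Ppp2r1b, -0.62 to 0.10 for Ppp2r2b and -4.03 to 1.71 for Ppp2r5a. The cause was not tested. Without 1 library a cell of 1 library is assumed to vary like the others.

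Same-numbered libraries did not deviate together: the correlation of deviations from cell means was -0.0157 for replicates 1 and 2 and -0.00597 for 3 and 4. As each cell holds 2 libraries, their deviations mirror each other, and each pair of replicates gives 1 value. With the replicate number as a block the member counts stayed at 0 for population and 1 for age class, again Ppp2ca, by which the family was chosen. Related genes stayed at 0 for both. Over all genes 24 and 6 passed, against 32 and 6. PKCd replicate 3, the shallowest library, limits what can be said of members with few reads.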
